A study of Mus musculus with 12 samples.

Results

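Dexmedetomidine was compared with saline in infralimbic cortex, the ventral part of the rodent medial prefrontal cortex. The comparison rests on 6 of the 12 polyA RNA-seq libraries of the series, taken by their titles: 3 from infralimbic tissue of mice given dexmedetomidine (labelled Dex) and 3 from mice given saline. The other 6 libraries are from prelimbic cortex. All mice were wild-type male C57BL/6 animals aged 10 to 12 weeks, and every animal had been fear conditioned with 3 pairings of a tone and a 0.7 mA foot shock. Mice that froze little at the last tone had been left out by the submitters. The Dex group received 40 µg per kg intraperitoneally in 10 ml per kg, and the saline group received the same volume. The titles place tissue collection 2 h after training. No library comes from an untrained or uninjected mouse, so training and injection are common to both groups. The labels do not say whether the samples of a group are separate mice, and p-values therefore measure the spread between these samples. The labels also assign batches 1, 2 and 3, and each Dex library has 1 saline library of its own batch. The extraction text of every sample names prelimbic tissue, also where the title names infralimbic cortex, and the titles were followed.

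Dexmedetomidine is a sedative that activates alpha2 adrenergic receptors. These receptors couple to Gi and Go proteins, which inhibit adenylyl cyclase, open GIRK potassium channels and close presynaptic calcium channels. On the noradrenergic neurons of the locus coeruleus they reduce firing, and on cortical pyramidal cells the alpha2A receptor lowers cAMP and closes HCN channels. Infralimbic cortex receives noradrenergic input and is best known for its part in the extinction of conditioned fear.

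Levels are in CPM, the read count of a gene relative to the library total after TMM scaling. Total counts were 5419187, 6412263 and 10874464 in Dex batches 1 to 3 and 10603069, 13802503 and 16530596 in saline batches 1 to 3. The Dex library was the shallower of the pair in every batch, so depth and treatment cannot be told apart. Pyramidal neuron RNA was present in every library: Slc17a7, the vesicular glutamate transporter of cortical projection neurons, was at 652, 682 and 974 CPM with saline and 701, 637 and 1082 CPM with Dex in batches 1 to 3. Of 20 genes listed as enriched in infralimbic cortex or deep layers, 19 were measured above the low-count filter, and their summed level was 765.1 to 864.6 CPM with saline and 770.1 to 868.6 CPM with Dex. RNA of striatal neurons was present as well. Ppp1r1b, which encodes the striatal phosphoprotein DARPP-32, was at 193, 204 and 158 CPM with saline and 166, 259 and 158 CPM with Dex, and the Dex library of batch 2 was the highest.

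Few genes separated the groups, and how many did depended on whether the batch was part of the model. Without the batch, edgeR's quasi-likelihood test called 0 of 20226 genes (0%) at an adjusted p under 0.05, and DESeq2 called 3, all lower with Dex. At an unadjusted p under 0.05 edgeR had 161 genes higher (0.796%) and 281 lower (1.39%), 2.19% in either direction. With the batch number as a block, edgeR called 18 genes (0.089%), 7 higher (0.0346%) and 11 lower (0.0544%), and unadjusted p was under 0.05 for 843 higher (4.17%) and 781 lower (3.86%), together 8.03%. The block lowered the common biological coefficient of variation from 0.117 to 0.054 and left 2 residual degrees of freedom in place of 4. The median prior degrees of freedom, the weight edgeR gives to a spread shared across genes, were 67.9 with the block and 9.02 without it. For most genes the blocked p-values therefore rest mainly on that shared spread and little on the gene's own replicates. Log2 fold changes of all genes were centred near 0, with 10341 of 20226 positive (51.1%) and a median of 0.00377. In all, 3022 genes were higher with Dex in all 3 batches (14.9%) and 2807 were lower in all 3 (13.9%). The groups did not overlap for 757 genes higher with Dex (3.74%) and for 829 lower (4.1%). In what follows, "rose" and "fell" are used only for the 18 genes called with the block. None of those 18 was called by edgeR's test without it at the settings used here.

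**Figure D1:**
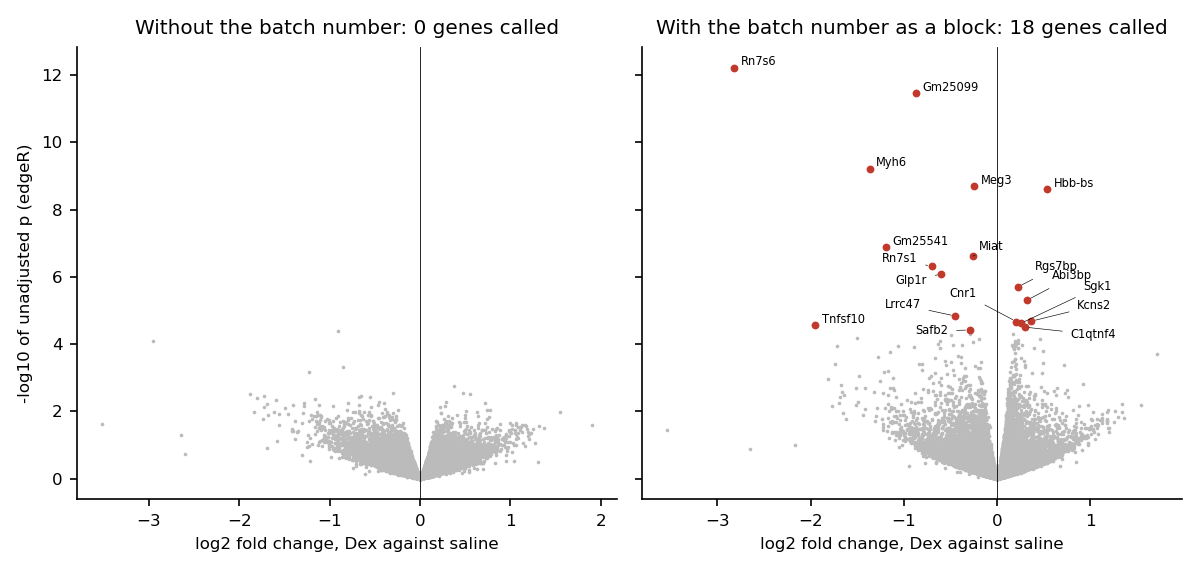
Each point is 1 of 20226 genes in infralimbic cortex, placed by its log2 fold change of Dex against saline (x axis) and by −log10 of its unadjusted edgeR p (y axis). The left panel is the fit without the batch number, with 0 genes called, and the right panel the fit with it, where the 18 named red points were called.

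The 2 lowest p-values of both fits belonged to small structural RNAs, Rn7s6 and Gm25099, and both were lower with Dex. With the block, 4 such RNAs fell. Rn7s6 and Rn7s1 are copies of 7SL RNA, the scaffold of the signal recognition particle that delivers nascent secretory proteins to the endoplasmic reticulum. Gm25099 is annotated as a small nuclear RNA and carries the sequence of U5, a core RNA of the spliceosome. Gm25541 carries that of U6atac, an RNA of the minor spliceosome that removes a rare class of introns. Rny3 and Rny1 are Y RNAs, which bind the Ro60 protein. RNAs of these kinds end without a poly(A) tail, while the libraries are labelled as polyA RNA. The U6atac gene is printed from the GRCm38 genome, 5′ to 3′ on its own strand, as an example of the RNAs that fell.
Gm25541, chr2:27539805-27539930, minus strand: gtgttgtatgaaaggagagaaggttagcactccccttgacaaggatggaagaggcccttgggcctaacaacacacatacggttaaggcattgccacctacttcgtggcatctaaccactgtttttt
The 7SL copies resemble each other closely. Reads can therefore be divided among the 7SL copies in ways that the counts do not show, and the value of each copy is uncertain. Each of Rn7s6 and Rn7s1 also lies within annotated transcripts on its own strand.

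Rn7s6 was at 18.8, 9.76 and 7.55 CPM in saline batches 1 to 3 and at 1.47, 0.623 and 2.19 CPM in Dex batches 1 to 3. The groups were far apart, and the Dex values rest on 8, 4 and 23 reads against 202, 136 and 123 reads with saline. It fell to 0.142 times the saline level with the block (log2 fold change −2.82, SE 0.266, edgeR adjusted p 1.21e-08), and without the block the log2 fold change was −2.95 (adjusted p 0.819). Rn7s1 varied more between batches than between treatments, at 7.73, 17.9 and 45.5 CPM with saline and 2.94, 9.65 and 32.5 CPM with Dex. It was lower with Dex in every batch and fell by the blocked test (−0.70, SE 0.126, edgeR adjusted p 0.00124), whereas without the block its log2 fold change was −0.56 with an SE of 1.04. Rn7s2 was at 58.3, 51.97 and 55.4 CPM with saline and 14.2, 32.2 and 47.7 CPM with Dex and was not called.

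The U5 gene Gm25099 was at 44.6, 33.2 and 29.8 CPM with saline and at 20.2, 18.7 and 18.6 CPM with Dex. All Dex libraries lay close together below all saline libraries, and the gene fell to 0.547 times the saline level (−0.87, SE 0.104, edgeR adjusted p 3.4e-08 with the block). The U6atac gene Gm25541 was at 12.02, 9.98 and 7.31 CPM with saline and 3.12, 6.07 and 3.33 CPM with Dex, again without overlap, and fell to 0.438 times (−1.19, SE 0.203, adjusted p 0.000449). The Y RNA gene Rny3 went the same way without a call, from 430.1, 339.9 and 286 CPM with saline to 185, 229 and 170.4 CPM with Dex (−0.85, SE 0.158, edgeR unadjusted p 0.000467 without the block; unadjusted p 0.0329 and adjusted p 0.562 with it). Rny1 was at 205, 110.5 and 96.8 CPM and 78.5, 81.1 and 54.5 CPM. The nucleolar RNA Snora21, which guides pseudouridylation of ribosomal RNA, was at 6.24, 3.52 and 1.97 CPM with saline and 0.551, 0.623 and 1.62 CPM with Dex, on 3, 4 and 17 reads in the Dex libraries.

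Not every structural RNA was lower. Rn7sk, the RNA of the complex that holds the elongation factor P-TEFb inactive, was at 1664, 3270 and 2482 CPM with saline and 1746, 3471 and 1696 CPM with Dex, slightly higher in batches 1 and 2 and lower in batch 3. Rnu12, the U12 RNA of the minor spliceosome, was lower in each batch by small amounts, −0.17, −0.13 and −0.29 on the log2 scale (edgeR adjusted p 0.126 with the block). In the list of small structural RNAs, which also holds Malat1, Neat1, Gm26917 and Lars2, 3 of 16 tested members had a positive log2 fold change, against 51.1% of all genes, and the median was −0.381. Of the 16, 8 were lower in all 3 batches and 0 were higher in all 3. By annotated class, 47 of 115 small nucleolar RNA genes were positive (median −0.121), as were 2 of 13 Cajal body RNA genes (median −0.195) and 43 of 85 small nuclear RNA genes (median 0.00384). Over all annotated classes of small structural RNA together, 170 of 387 genes were positive (43.9%), and the median of −0.0719 was much nearer 0 than that of the list. Small structural RNAs together took 0.802%, 0.918% and 0.806% of the counts in saline batches 1 to 3 and 0.602%, 0.945% and 0.621% in Dex. The share was thus lower with Dex in batches 1 and 3 and not in batch 2. How far RNA quality or the selection of polyA RNA goes with these values was not tested.

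**Figure D2:**
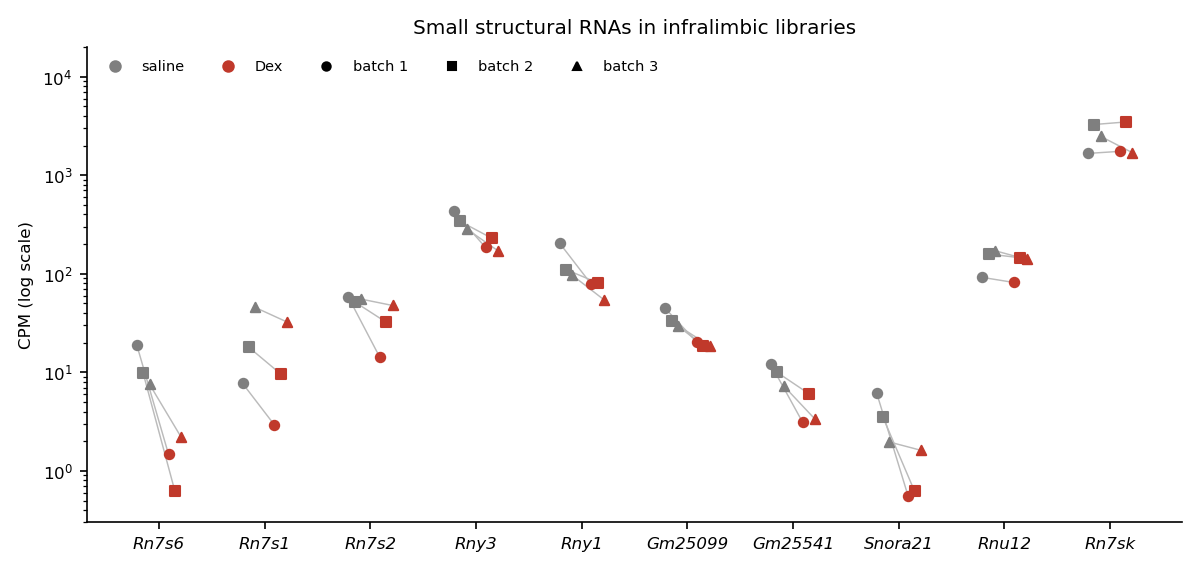
CPM on a log axis of 10 small structural RNAs in the 6 infralimbic libraries, grey for saline and red for Dex, with the marker shape giving the batch and a line joining the libraries of 1 batch. Rn7s6, Gm25099 and Gm25541 have every red point below every grey point, while Rn7sk and Rnu12 overlap.

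Among protein-coding genes, 7 rose with Dex by the blocked test. Kcns2 encodes Kv9.2, a silent subunit that modifies Kv2 potassium channels. Its level was 39.8, 39.5 and 44.4 CPM in saline batches 1 to 3 and 50.7, 52.9 and 56.2 CPM in Dex batches 1 to 3, with every Dex library above every saline library. It rose 1.29-fold (log2 fold change 0.37, SE 0.0813, 95% interval 0.21 to 0.53, edgeR adjusted p 0.0311). Rgs7bp encodes the protein that anchors R7 family RGS complexes, which speed the shut-off of Gi and Go signals, at the membrane. It was at 318, 338 and 361 CPM with saline and 389, 397 and 403 CPM with Dex, again without overlap, and rose 1.17-fold (0.23, SE 0.0437, adjusted p 0.00404).

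Cnr1, the CB1 cannabinoid receptor of presynaptic terminals, also couples to Gi and Go proteins. It was at 252, 263 and 359 CPM with saline and 323, 287 and 399 CPM with Dex, so the groups overlapped because batch 3 was high in both. Within batches the log2 differences were 0.36, 0.13 and 0.15, and the gene rose 1.16-fold (0.21, SE 0.0461, edgeR adjusted p 0.0311). Sgk1, a kinase gene induced by glucocorticoids and by neuronal activity, had the same shape, at 97.8, 97.6 and 147 CPM with saline and 127, 119 and 162 CPM with Dex, and rose 1.19-fold (0.26, SE 0.0566, adjusted p 0.0327). Without the block the unadjusted p in edgeR was 0.22 for Cnr1 and 0.197 for Sgk1.

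C1qtnf4 encodes a secreted protein of the C1q and TNF family. Its level of 60.6, 75.6 and 104 CPM with saline and 80.3, 77.97 and 139 CPM with Dex hardly differed in batch 2 (log2 differences 0.41, 0.045 and 0.42), and it rose 1.23-fold (0.30, SE 0.0667, edgeR adjusted p 0.0374). Abi3bp, which encodes an extracellular matrix protein, was at 60, 65.3 and 154 CPM with saline and 90.97, 76.6 and 177 CPM with Dex. Batch 3 held about the same excess in both groups, and the rise was 1.25-fold (0.32, SE 0.0641, adjusted p 0.00917). Without the block its SE was 0.568, larger than the log2 fold change of 0.31.

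The last of the 7, Hbb-bs, encodes a beta chain of adult haemoglobin. It was at 44.6, 51.1 and 43.9 CPM with saline and 56.2, 88.1 and 60.9 CPM with Dex, without overlap, and rose 1.46-fold (0.54, SE 0.0788, edgeR adjusted p 9.65e-06). The Dex library of batch 2 was the highest for Hbb-bs and stood apart for other globin genes. The alpha chain gene Hba-a1 was at 10.6, 9.12 and 11.1 CPM with saline and 10.1, 38.6 and 12.3 CPM with Dex, and the beta chain gene Hbb-bt was at 2.33, 3.73 and 3.19 CPM and 1.84, 10.7 and 3.902 CPM. The similar gene Hba-a2 was not high in that library, with log2 differences of 0.91, −0.40 and 0.20. Globin copies resemble each other closely, so reads could be divided among them. Neither Hba-a1 nor Hbb-bt differed much in batches 1 and 3, where their log2 differences were −0.31 to 0.27. Of 7 tested erythroid markers, 5 were positive and 1 was higher in all 3 batches. Their summed level was 239 to 255.7 CPM with saline and 258.1 to 320.1 CPM with Dex. How much blood RNA each piece of tissue held was not tested.

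The genes that fell outside the structural RNAs included 2 long noncoding RNAs. Meg3, a maternally expressed imprinted RNA of the Dlk1-Dio3 locus and among the most abundant noncoding RNAs of neurons, was at 5506, 4846 and 4729 CPM with saline and 4601, 4003 and 4126 CPM with Dex. Each Dex library lay below each saline library, and Meg3 fell to 0.845 times the saline level (−0.24, SE 0.0353, edgeR adjusted p 9.65e-06 with the block). Miat, a nuclear RNA of neurons, was at 375, 305 and 368 CPM with saline and 304, 246 and 328 CPM with Dex and fell in the same proportion (−0.26, SE 0.045, adjusted p 0.000702). The highest Dex value of Miat was above the lowest saline value, while its log2 differences within batches were −0.30, −0.31 and −0.17. Counting used no strand, and a gene on the other strand overlaps Meg3 and another overlaps Miat, so reads of each pair cannot be told apart.

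Glp1r, the receptor for glucagon-like peptide 1, was at 38.9, 31.9 and 15.8 CPM with saline and 22.4, 21.01 and 12.2 CPM with Dex. The level differed most between batches, and Glp1r fell to 0.662 times the saline level within them (−0.59, SE 0.11, edgeR adjusted p 0.00183). The lateral septum, next to infralimbic cortex, expresses this receptor strongly. Of 14 tested markers of septum and olfactory areas, 5 were positive, 2 were higher in all 3 batches and 3 were lower in all 3, and their median log2 fold change was −0.0986. Their summed level was 332.3, 398.9 and 248 CPM in saline batches 1 to 3 and 276.2, 348.9 and 279.7 CPM in Dex. That sum was lower with Dex in batches 1 and 2 and higher in batch 3, and Glp1r was lower in all 3. With the block 3 of the 14 markers were lower (21.4%, against 3.86% of all genes) and 1 was higher (7.14%, against 4.17%) at an unadjusted p under 0.05 in edgeR. The part of neighbouring tissue in the Glp1r value was not tested.

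Myh6, the alpha heavy chain of cardiac myosin, was present at a low level of 6.24, 8.83 and 18.4 CPM with saline and 2.39, 4.36 and 6.28 CPM with Dex, on 67, 123 and 299 reads against 13, 28 and 66. It fell to 0.389 times (−1.36, SE 0.19, edgeR adjusted p 4.06e-06), and the log2 differences within batches were close to each other, −1.32, −0.99 and −1.52. A gene on the other strand overlaps it. The neighbouring paralog Myh7, whose similar sequence could take some of the reads, was at 16.3, 11.99 and 12.04 CPM with saline and 12.7, 11.8 and 10.5 CPM with Dex and was not called. Tnfsf10, the death ligand TRAIL, was at 1.49, 1.44 and 4.79 CPM with saline and 0.368, 0.467 and 1.14 CPM with Dex, and the Dex values rest on 2, 3 and 12 reads. It fell by the blocked test (−1.95, SE 0.433, adjusted p 0.0342).

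Safb2 and Lrrc47 complete the called genes. Safb2, which encodes a scaffold attachment factor that binds RNA, had narrow groups, 88.7, 83.4 and 87.2 CPM with saline and 68.5, 69.1 and 73.4 CPM with Dex, and fell to 0.816 times (−0.29, SE 0.0666, edgeR adjusted p 0.0429). Lrrc47, a leucine-rich repeat gene, was at 43.6, 35.5 and 38.5 CPM with saline and 27.4, 23.8 and 33.9 CPM with Dex and fell to 0.734 times (−0.45, SE 0.0957, adjusted p 0.0248). Its difference was smallest in batch 3 (log2 −0.67, −0.57 and −0.18 in batches 1 to 3). Smim1 overlaps Lrrc47 on the other strand.

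Of the 18 genes, 10 had groups that did not overlap, against 3.74% of all genes higher and 4.1% lower. An unadjusted p under 0.05 in edgeR without the block was found for 12, against 2.19% of all genes. The 18 were picked by differences in the same 6 libraries, so these counts are no independent support. Rn7s6 alone was called in all 9 alternatives to the blocked fit that were run. Gm25099, Hbb-bs, Meg3 and Myh6 were called in 8 of 9, Rn7s1 in 7, and Gm25541, Miat and Glp1r in 6. Abi3bp, Cnr1 and Rgs7bp were called in 5, Kcns2 and C1qtnf4 in 4, Tnfsf10 in 4 of the 8 that tested it, and Sgk1, Safb2 and Lrrc47 in 3. On counts thinned to the smallest library total, 19 genes were called with the block, 10 of the 18 among them. Thinning makes the read totals equal and cannot undo other differences between the libraries.

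**Figure D3:**
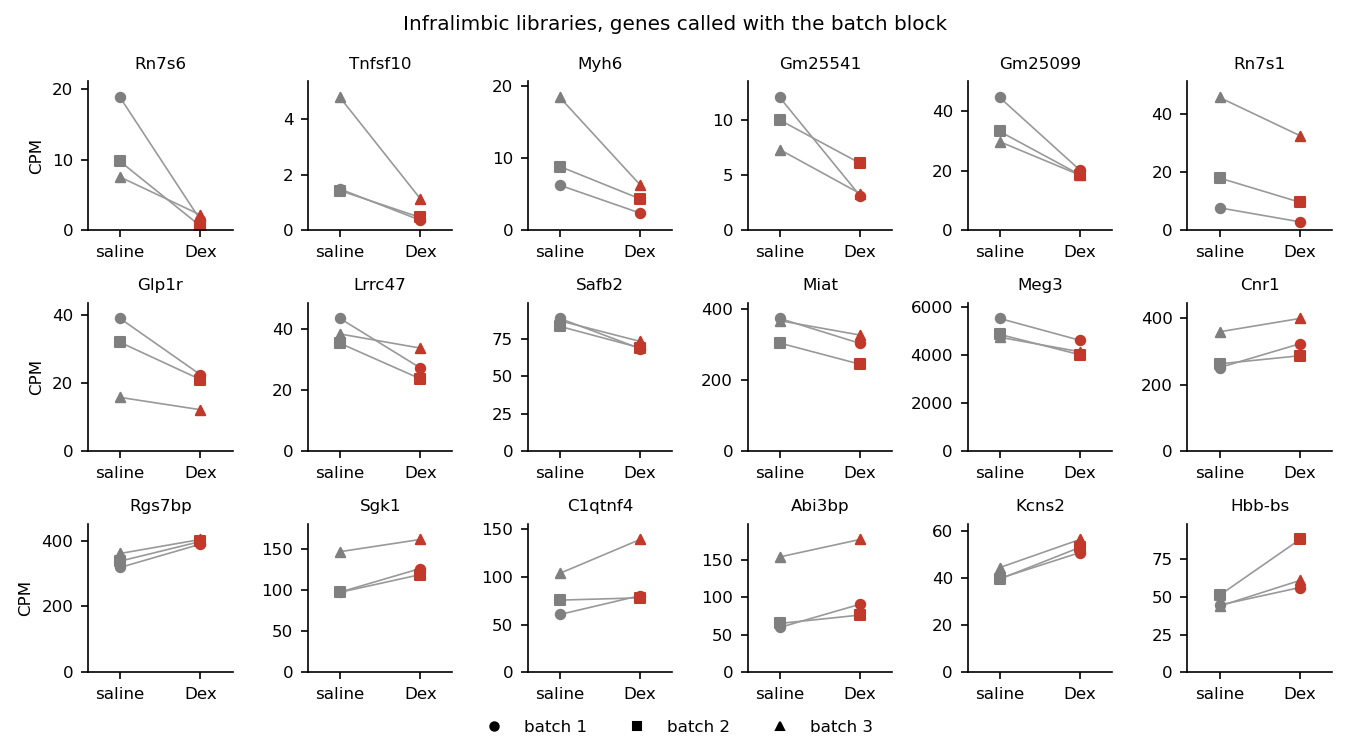
CPM (y axis, from 0) of the 18 genes called with the batch block, ordered from the largest fall to the largest rise, in saline and Dex libraries joined by batch. All lines of a gene slope the same way, whereas in panels such as Abi3bp, Rn7s1 and Cnr1 the batches lie further apart than the treatments.

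The other genes with the smallest p without the block are given as values, since edgeR called none of them at these settings, with the block or without it. Hnrnpf, a splicing regulator that binds G-rich RNA, was at 19.6, 19.6 and 22.5 CPM with saline and 31.2, 31.4 and 24.3 CPM with Dex (log2 fold change 0.48, SE 0.131, edgeR unadjusted p 0.00292). Every Dex library was above every saline library, by a small margin in batch 3, and genes on the other strand overlap it. With the block its adjusted p was 0.057. Across 41 hnRNP and SR splicing factor genes, 21 were positive and the median was 0.00208, close to that of all genes.

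Arhgap24, a Rac-directed GTPase activating protein, was at 3.73, 5.74 and 5.77 CPM with saline and 8.82, 7.94 and 8.66 CPM with Dex (0.72, SE 0.218). Arl5b, a small GTPase of the trans-Golgi, was at 51.8, 50.2 and 50.5 CPM and 61.6, 64.9 and 59.8 CPM (0.29), and Plxdc2, a membrane protein with a plexin domain, was at 72.8, 81.04 and 84.7 CPM and 99.4, 96.3 and 92.8 CPM (0.27). The glycolysis genes Pgam2 (0.77) and Eno1b (0.63) and the ankyrin repeat gene Ankrd29 (0.51) were higher in each Dex library than in each saline library too. In the list of genes for glucose uptake, glycolysis and lactate, 19 of 30 were positive (median 0.0207). Of that list 13.3% were higher in all 3 batches, against 14.9% of all genes. Lower in each Dex library were Cdca7, a cell division cycle associated gene (from 13.9, 15.2 and 11.1 CPM to 8.27, 9.96 and 7.42 CPM, −0.65), Fam50a (−0.55), Mipol1 (−0.79), the zinc finger gene Zbtb40 (−0.46) and the micropeptide gene Smim6 (−1.80). The SE of these values was 0.0852 to 0.518, and edgeR's unadjusted p was 0.0041 to 0.0104 for those just named other than Fam50a (0.00377) and Cdca7 (0.00347).

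The receptors that bind the drug showed no called difference. Adra2a, the main alpha2 receptor of cortex, was at 25.5, 29.9 and 39.3 CPM with saline and 24.8, 31.6 and 51.1 CPM with Dex, with the groups overlapping (0.21, SE 0.273, 95% interval −0.43 to 0.85, edgeR unadjusted p 0.472). Adra2c, the alpha2C receptor, was at 24.3, 22.2 and 25.4 CPM and 26.5, 21.8 and 31.8 CPM (0.17, 95% interval −0.13 to 0.47). Adra2b was near the limit of detection, with 11, 28 and 12 reads with saline and 8, 2 and 1 with Dex. Of 9 adrenergic receptor genes 5 were positive, and 0 were higher or lower in all 3 batches.

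Downstream of the receptor, 31 of 44 genes for Gi and Go proteins, adenylyl cyclases, phosphodiesterases and RGS proteins were positive (median 0.0417), 11 were higher in all 3 batches and 3 were lower in all 3. With the block 6 had an unadjusted p under 0.05 in edgeR, all higher (13.6% of the list, against 4.17% of all genes), and 0 were lower at that level (against 3.86%). Pde4b, a phosphodiesterase that breaks down cAMP, was at 151, 159 and 168 CPM with saline and 197, 189 and 174 CPM with Dex, without overlap (0.22, SE 0.0529, adjusted p 0.057 with the block). Rgs4, a regulator of Gi and Gq signals in pyramidal cells, was at 294, 231 and 287 CPM and 360, 265 and 288 CPM, and its log2 differences were 0.29, 0.19 and 0.0013, largest in batch 1 and near 0 in batch 3.

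HCN channels carry the hyperpolarization-activated current, and GIRK channels the potassium current opened by Gi-coupled receptors. Of 9 tested genes of these channels and the GABA-B receptor, 7 were positive (median 0.127), 5 were higher in all 3 batches and 1 was lower in all 3. Hcn4 was at 7.55, 9.33 and 11.2 CPM with saline and 10.3, 13.1 and 13.99 CPM with Dex (with the block 0.41, SE 0.152, edgeR unadjusted p 0.00907, adjusted p 0.41), and Hcn2 differed mainly in batch 3 (0.046, 0.028 and 0.28). The GIRK3 gene Kcnj9 went the other way, from 71.9, 61.2 and 75.3 CPM with saline to 60.1, 53.5 and 68.9 CPM with Dex (−0.19, SE 0.0719, unadjusted p 0.0109), lower in every batch. The GIRK1 gene Kcnj3 was higher in batches 1 and 2 only (0.26, 0.18 and −0.026). The GABA-B receptor genes Gabbr1 (0.10, 0.044 and 0.057) and Gabbr2 (0.24, 0.11 and 0.038) were higher in each batch by small amounts.

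Other potassium channel genes, a list that holds Kv, inward rectifier, calcium-activated and tandem-pore families but not Kcns2, had 34 of 43 members positive (median 0.0956). In all 3 batches 19 were higher (44.2% of the list, against 14.9% of all genes) and 1 was lower. With the block 12 were higher (27.9%, against 4.17% of all genes) and 1 lower (2.33%, against 3.86%) at an unadjusted p under 0.05 in edgeR. Kcna5, the Kv1.5 gene, was at 17.2, 20.2 and 20.02 CPM with saline and 23.3, 27.2 and 21.98 CPM with Dex, and the inward rectifier gene Kcnj10 of glia was at 142, 139 and 137 CPM and 152, 159.5 and 154 CPM, both without overlap. The ERG3 gene Kcnh7 (0.19, edgeR adjusted p 0.0716 with the block), Kcnh1 (0.17, adjusted p 0.282) and the M-current gene Kcnq3 (0.13, adjusted p 0.299) were higher in every batch, and the difference was smallest in batch 3 for each of these 3. The median of the list within batches was 0.15, 0.0856 and 0.0377.

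Sodium and calcium channel genes had 14 of 26 members positive, and the calcium channel subunit genes Cacnb3 (0.22, SE 0.0547, edgeR adjusted p 0.057) and Cacna2d1 (0.19, SE 0.0459, adjusted p 0.0585) lay just outside the threshold with the block. Of 19 genes for GABA synthesis, transport and GABA-A receptors, 14 were positive (median 0.0451), 7 were higher in all 3 batches and 0 were lower in all 3. Of 22 glutamate receptor genes 15 were positive (median 0.0319). The NMDA receptor subunit gene Grin2b was higher in each batch by 0.15, 0.10 and 0.076, and the presynaptic metabotropic receptor gene Grm2 by 0.35, 0.27 and 0.13. Among 30 kinases and scaffolds of synaptic plasticity 26 were positive (median 0.056), 9 were higher in all 3 batches and 1 was lower in all 3. No member of these lists was called. Markers of excitatory projection neurons were positive for 14 of 19 genes (median 0.0699), with batch medians of 0.132, 0.0396 and −0.00972 that were highest in batch 1 and lowest in batch 3, as were those of the potassium channels. How far the share of neuronal RNA goes with the channel values was not tested.

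Immediate early genes are switched on within minutes of neuronal firing through the factors CREB and SRF, and their products adjust later transcription and synapses. Of 43 tested members, 34 were positive (median 0.113, with batch medians of 0.0626, 0.0635 and 0.15), 15 were higher in all 3 batches and 1 was lower in all 3. With the block 13 were higher (30.2%, against 4.17% of all genes) and 0 lower (against 3.86%) at an unadjusted p under 0.05 in edgeR, and 0 were called. Dusp1, a phosphatase that switches off MAP kinases, was at 26.4, 28.9 and 30.6 CPM with saline and 31.8, 35.95 and 36.5 CPM with Dex, and Egr2, a zinc finger factor, was at 16.2, 15.2 and 14.2 CPM and 20.6, 17.1 and 19.99 CPM. Both were without overlap, with log2 fold changes of 0.28 (SE 0.108) and 0.34 (SE 0.133). Ergic1 overlaps Dusp1 on the other strand. Nr4a1, an orphan nuclear receptor, was at 84.9, 88.1 and 118 CPM and 88.6, 113 and 135 CPM. It was higher in each batch and had the smallest unadjusted p of the list with the block (0.00119, edgeR; 0.20, SE 0.0607, adjusted p 0.206).

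Fos, Arc and Npas4, often measured as signs of neuronal activity, did not separate the groups. Fos was at 28.5, 36.9 and 33.8 CPM with saline and 35.3, 33.8 and 38.4 CPM with Dex, lower with Dex in batch 2 (0.12, SE 0.116). Arc, whose product acts at synapses, was at 122, 135 and 171 CPM and 109, 137 and 171 CPM (−0.033, SE 0.174), and Npas4 was at 43.1, 30.2 and 25.6 CPM and 41.5, 32.5 and 29.7 CPM (0.064, SE 0.192). Egr4 (0.26, SE 0.0861), Nr4a3 (0.17, SE 0.0643), Sik1 (0.21, SE 0.0838) and Homer1 (0.11, SE 0.0414) were higher with Dex in every batch. The values of Egr4, Nr4a3, Sik1 and Homer1 are from the fit with the block. Those of Fos, Arc and Npas4 are from the fit without it, so the SEs cannot be compared. Without the block Egr4 had a log2 fold change of 0.27 with an SE of 0.116. For Bdnf, the neurotrophin, the log2 differences were 0.27, −0.02 and 0.14.

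The promoters of Dusp1 and Nr4a1 are shown because these were the members with the smallest p of the list without and with the block, in that order. They run from 250 bases before to 50 bases after the annotated start (RefSeq, GRCm38.p6), with TGACG or its reverse complement CGTCA, the core of the cAMP response element bound by CREB, in capitals.
Dusp1, chr17:26508423-26508722, minus strand: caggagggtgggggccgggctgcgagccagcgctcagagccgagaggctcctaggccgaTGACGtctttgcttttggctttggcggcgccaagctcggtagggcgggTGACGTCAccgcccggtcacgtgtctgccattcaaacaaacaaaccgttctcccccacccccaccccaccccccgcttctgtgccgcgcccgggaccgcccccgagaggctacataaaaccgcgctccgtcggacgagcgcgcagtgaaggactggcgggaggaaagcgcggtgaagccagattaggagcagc
Nr4a1, chr15:101266596-101266895, plus strand: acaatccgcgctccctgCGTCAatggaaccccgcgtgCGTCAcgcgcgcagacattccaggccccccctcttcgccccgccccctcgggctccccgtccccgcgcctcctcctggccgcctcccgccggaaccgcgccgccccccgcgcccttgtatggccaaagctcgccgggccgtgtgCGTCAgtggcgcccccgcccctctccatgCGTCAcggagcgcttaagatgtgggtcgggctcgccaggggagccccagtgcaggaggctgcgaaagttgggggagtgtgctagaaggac
The window of Dusp1 holds 3 such matches: 1 stands alone, and the others are TGACG and CGTCA overlapping within the full palindrome TGACGTCA. That of Nr4a1 holds 4. On either strand, TGACG was found in 32 of 52 promoter windows of immediate early genes (61.5%) and in 20.8% of all 32851 windows of that length. TGACGTCA was found in 7.69% and 1.79%. The windows belong to 35 of the 43 genes, matched by symbol, and a match describes the letters only. These shares describe the genes chosen for the list and not their response to Dex.

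The series title names Srebf1 and Phgdh. Srebf1, the lipid regulator SREBP1, was at 47.8, 46.3 and 45.95 CPM with saline and 49.4, 39.1 and 52.1 CPM with Dex, and Phgdh, the first enzyme of serine synthesis, was at 35.8, 38.9 and 42.3 CPM and 34.7, 37.8 and 43.1 CPM. The Dex values surrounded the saline values of both genes, with 95% intervals of −0.23 to 0.25 and −0.25 to 0.23 on the log2 scale. Of 22 fatty acid synthesis genes 16 were positive (median 0.0547) and 3 were higher in all 3 batches, among them Scd2, a desaturase, whose log2 differences were 0.10, 0.085 and 0.10. Of 17 genes of serine synthesis and one-carbon metabolism 9 were positive (median 0.00543).

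Of the genes on the lists for stress, inflammation and interferon only Sgk1, described above, was called. The called gene Tnfsf10 is not on these lists. Of 24 glucocorticoid-responsive genes 12 were positive, 8 were higher and 5 lower in all 3 batches. Klf9 was at 243, 256 and 282 CPM with saline and 263, 296 and 306 CPM with Dex (0.15, SE 0.0456, edgeR unadjusted p 0.00197 with the block), and Fkbp5 had log2 differences of 0.084, 0.26 and 0.037. Mt2, a metallothionein gene, was at 1.398, 1.29 and 1.29 CPM with saline and 0.184, 0.623 and 0.381 CPM with Dex, on at most 4 reads per Dex library. Of 16 tested inflammatory and interferon genes 5 were positive (median −0.19). With the block 6 were lower (37.5%, against 3.86% of all genes) and 1 higher (6.25%, against 4.17%) at an unadjusted p under 0.05 in edgeR. Ifit3 was at 2.98, 2.73 and 7.49 CPM with saline and 1.103, 2.49 and 1.24 CPM with Dex, with most of the difference in batch 3 (−1.29, −0.12 and −2.43; adjusted p 0.057 with the block). The saline library of batch 3 was also the highest for Ifit1 (2.33, 2.73 and 10.7 CPM), Icam1 (1.398, 1.36 and 4.55 CPM) and Vcam1 (22.6, 23.3 and 32.8 CPM), and for the called gene Tnfsf10. Irf1, an interferon regulatory factor, went the other way, from 3.35, 3.95 and 2.83 CPM to 6.07, 7.16 and 4.19 CPM, without overlap. Il1b, Il6 and Tnf did not pass the low-count filter. In prelimbic cortex 4 of 16 genes of this list were positive (median −0.522). The prelimbic saline library of batch 3 was likewise the highest there for Ifit1 (30.55 CPM), Icam1 (8.8 CPM) and Vcam1 (57.7 CPM).

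Among clock genes Dbp, an output of the circadian clock, was at 26.2, 25.1 and 25 CPM with saline and 21.1, 19.6 and 22.8 CPM with Dex, without overlap (−0.25, SE 0.114, edgeR unadjusted p 0.0433), and 9 of 22 clock genes were positive. Of 22 cold-inducible and heat shock genes 14 were positive (median 0.0188), while the cold-inducible genes Cirbp (−0.13, −0.10 and 0.011) and Rbm3 (−0.30, −0.008 and −0.13) were not higher with Dex in batches 1 and 2. Foxo3, a factor restrained by insulin signalling, was at 126, 111 and 128 CPM and 147, 138 and 132 CPM (0.19, SE 0.0842).

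Cell type markers differed by small amounts, and none of their members other than Hbb-bs was called. Of 20 microglia markers 16 were positive (median 0.121, with batch medians of 0.129, 0.14 and 0.114), 8 were higher in all 3 batches and 0 were lower in all 3. Their summed level was 375.6 to 410.6 CPM with saline and 401.4 to 439.6 CPM with Dex. In bulk tissue a different number of cells and a different amount of RNA per cell cannot be told apart. Laptm5, a lysosomal protein of immune cells, was at 16.4, 19.8 and 18.98 CPM with saline and 20.2, 24.9 and 24.6 CPM with Dex, without overlap (0.34, SE 0.131, edgeR unadjusted p 0.0219). Trem2 was at 4.38, 6.32 and 7.19 CPM and 8.09, 7.003 and 9.61 CPM. The homeostatic genes P2ry12 (0.10, 0.27 and 0.20) and Cx3cr1 (0.18, 0.046 and 0.093) were also higher in each batch. Astrocyte markers were positive for 14 of 20 genes (median 0.0319), endothelial markers for 8 of 20 (median −0.00915) and oligodendrocyte markers for 7 of 20 (median −0.0456). The myelin genes Cnp (−0.34, −0.14 and 0.029) and Mag (−0.24, −0.27 and 0.0052) were lower in batches 1 and 2 only. Striatal markers were positive for 15 of 17 genes (median 0.0801), and their batch medians of 0.0323, 0.275 and −0.0412 show that batch 2 held most of this. Ribosomal protein genes were positive for 55 of 77 (71.4%, against 51.1% of all genes), with a small median of 0.034. Of them 23.4% were higher in all 3 batches, against 14.9% of all genes. Oxidative phosphorylation genes were positive for 41 of 73 (56.2%, median 0.0149).

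**Figure D4:**
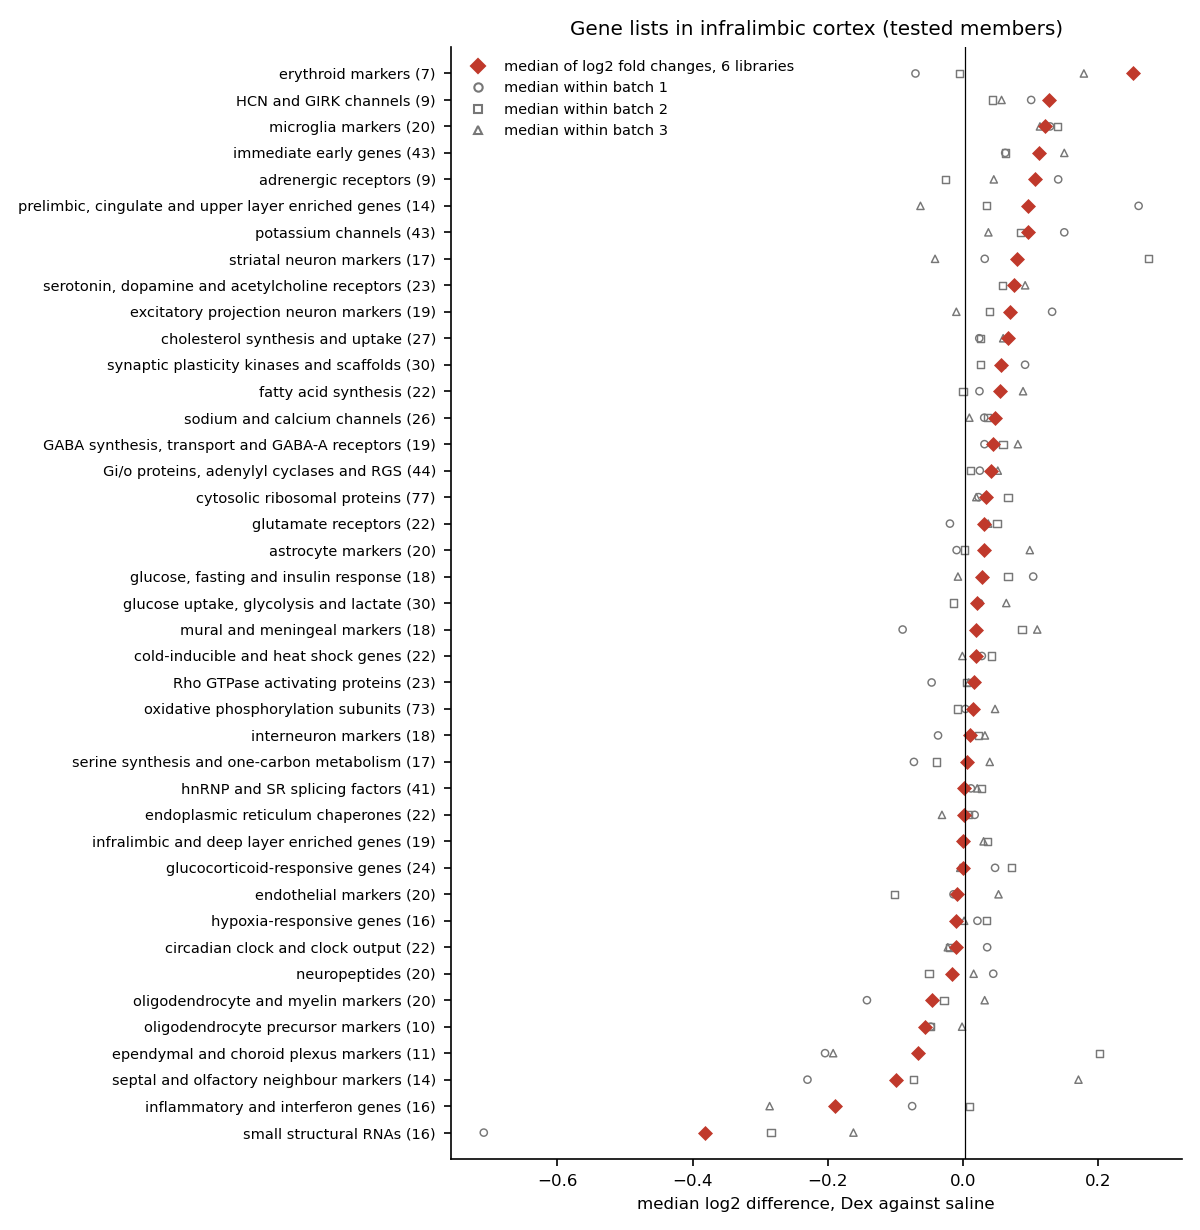
Median log2 difference of Dex against saline (x axis) for the tested members of 41 gene lists, with the number tested in brackets, as red diamonds for the 6 libraries and open markers for each batch. The vertical line is the median of all genes, 0.00377. The list of small structural RNAs, which also holds Malat1, Neat1, Gm26917 and Lars2, lies lowest at −0.381. The 3 batches of microglia markers lie together at 0.114 to 0.14, while erythroid and striatal markers are spread.

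The same treatment in prelimbic cortex served to ask which differences were particular to infralimbic tissue. The difference between the effects in infralimbic and prelimbic cortex was called for 0 of 20015 genes (0%) by edgeR, also with the batch block (0%), and 1347 genes had an unadjusted p under 0.05 (6.73%; 7.81% with the block). Lrrc47 had the smallest p among genes without predicted names: it was at 26.7, 21.1 and 28.6 CPM with saline and 39.3, 37.3 and 35.6 CPM with Dex in prelimbic cortex, opposite to its fall in infralimbic cortex (difference −1.01, SE 0.211, edgeR unadjusted p 0.000112, adjusted p 0.716). Of the 18 called genes, 10 had the same sign in prelimbic cortex. The difference had an unadjusted p under 0.05 in edgeR for 3 of them without the block and for 6 with it. Besides Lrrc47, the genes below that level in both fits were Miat (−0.61, SE 0.235, unadjusted p 0.0192) and Rgs7bp (0.42, SE 0.181, unadjusted p 0.0301, all without the block). Cnr1, Kcns2 and Abi3bp were below it with the block only (unadjusted p 0.0204, 0.0366 and 0.0425, edgeR). In that fit each batch was given the same effect in both regions, which need not hold. For Abi3bp batch 3 was highest in infralimbic cortex, while in prelimbic cortex with saline it was lowest (27.03, 24.01 and 16.4 CPM in batches 1 to 3). Rny3 was lower with Dex in prelimbic cortex as well, at 408, 743 and 751 CPM and 318, 215 and 419 CPM, and so was Tnfsf10, at 1.82, 2.81 and 10.3 CPM and 1.22, 0.726 and 0.949 CPM. The list of small structural RNAs was low there too, with 4 of 16 members positive (median −0.447, against −0.00189 for all genes). Immediate early genes were positive for 32 of 43 in prelimbic cortex, with a median of 0.277 against 0.113 in infralimbic cortex. Neither pattern was thus particular to infralimbic cortex. Fos had a log2 fold change of 0.61 there against 0.12 in infralimbic cortex (difference −0.49, SE 0.194, unadjusted p 0.0202, adjusted p 0.716). The genes with the smallest p for a higher effect in infralimbic cortex were the zinc finger genes Zfp942 (0.87), Zfp943 (0.89) and Zfp397 (0.52), with Arl5b (0.59) and Calcrl (1.14). In infralimbic cortex itself Zfp942 was at 22.6, 26.2 and 26.4 CPM with saline and 24.4, 26.3 and 24.5 CPM with Dex, and in prelimbic cortex at 43.3, 47.2 and 42.6 CPM and 23.5, 18.9 and 30.2 CPM. Zfp397 was likewise nearly level in infralimbic cortex (−0.014) and lower with Dex in prelimbic cortex (−0.53). The log2 fold changes in infralimbic and prelimbic cortex were 0.24 and −0.64 for Zfp943, and 0.22 and −0.92 for Calcrl. For these 4 genes the larger part of the difference was the lower prelimbic value with Dex, while Arl5b had 0.29 in infralimbic and −0.30 in prelimbic cortex.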

How the data were processed

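The authors deposited raw read counts per gene, made per the file headers with featureCounts 2.0.1 on exons of annotation release 98 (GRCm38), in paired-end mode and without strand. The submitters' processing notes name SAMtools 1.8, HISAT2, Trim Galore and bcl2fastq as tools and mm39 as a build. Of 55240 genes found in GENCODE M21, 54985 had the same start and end, so GRCm38 coordinates are given. In the table, 12 count columns matched no sample and were not used. Of 55421 genes 55154 had a symbol, and 107 repeated symbols were kept for 1 identifier.

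The 6 infralimbic libraries were fitted in edgeR 4.0.16 under R 4.3.3 (filterByExpr, TMM factors 0.969 to 1.02, robust quasi-likelihood, Benjamini-Hochberg adjustment, threshold 0.05, two-sided tests). The prelimbic libraries, which fall into sets crossing treatment, were left out of this fit. They entered the difference between regions, the values given for prelimbic cortex and the alternatives with all 12 libraries. The batch number was then added as a block. The labels call it a batch and it equals the sample number. Deviations from the group means correlated by 0.27, 0.287 and 0.33 between libraries of the same number and by −0.195 to −0.0982 otherwise, across genes. The blocked values stand beside the results because they change calls. Alternatives were DESeq2 1.42.0, limma-voom (limma 3.58.1), other scaling, no filter, thinned counts, all 12 libraries and leaving out libraries. The code was tested on simulated data.

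The comparison, its gene lists and the rule for named genes were chosen with earlier results of these data known. The rule took, for each fit, the 10 called genes with the largest change in each direction (where fewer were called, the 10 with the smallest p) at a mean level of 1 CPM or more and without predicted names. It also took the 3 list members with the smallest p, the genes of the title, the alpha2 receptors, the 6 smallest p among predicted or structural genes, and the 5 smallest p for each direction of the region difference. A few genes and sequences are not reported here. Of the others, those the text needs are named, and other list members are given where their list is described. Lists are described by counts and medians, without a test.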

Additional observations from a re-analysis of the deposited data

How the results depend on the processing

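The number of called genes depended on the model. Against 0 in edgeR without the block, 9 genes were called without the low-count filter, 3 in DESeq2, 1 on thinned counts, 18 with the replicate block, and 0 with RLE scaling or with all 12 libraries. Leaving out single libraries gave 0 to 1 (1 gene without Dex library 3 and 1 without saline library 3). The remaining alternatives to the blocked fit were chosen after seeing the data. Against 18 called genes, the replicate block gave 57 without the low-count filter, 41 with RLE scaling, 38 in limma-voom, 19 on thinned counts, 8 in DESeq2 and 1 (Rn7s6) in 1 fit to all 12 libraries. It gave 14 without batch 1, 47 without batch 2 and 114 without batch 3. Among those calls, 18, 18, 15, 10, 6, 1, 6, 12 and 16 of the 18 were found, in that order. With RLE scaling 24 of 41 calls were higher, against 7 of 18 with TMM, while the median of all genes moved by only 0.00569. The difference between regions had 4 called genes without the filter and 0 with the replicate block. A positive median was found for 31 of 41 lists, 28 with the replicate block, and 22 to 32 without single libraries. The cause of these differences was not tested.

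Log2 fold changes without the block that changed sign when single libraries were left out ranged from −0.163 to 0.889 for Abi3bp, −0.0188 to 0.551 for C1qtnf4, −1.9 to 0.309 for Rn7s1, −0.164 to 0.398 for Adra2a, −0.0365 to 1.17 for Hbb-bt, −0.215 to 0.116 for Arc, −0.0926 to 0.299 for Npas4, −0.0825 to 0.371 for Bdnf, −0.0304 to 0.234 for Hcn2, −0.427 to 0.013 for Rnu12, −0.0793 to 0.124 for Srebf1 and −0.104 to 0.054 for Phgdh. The same held for Adarb2 (−0.0313 to 0.27), Adcy5 (−0.00834 to 0.145), Dlx1 (−0.275 to 0.0387), Isl1 (−0.479 to 0.0966), Rarb (−0.00216 to 0.28), Zfp397 (−0.0668 to 0.0349) and Zfp942 (−0.0684 to 0.033), and Zfp942 was also positive with RLE scaling (0.00156), in DESeq2 (0.00171) and on thinned counts (0.00346). Leaving out 1 library breaks its batch pair.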
